A study of Mus musculus with 4 samples.

Results

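The genes described here encode the proteasome, and they were chosen by symbol alone: every gene whose name runs from Psma to Psmg and ends in a number, with or without a letter. The rule found 49 genes among the 24411 rows of each deposited table, and 48 of them averaged 1 TPM or more across the 4 libraries, as did 14512 rows in all. By role they are 7 constitutive alpha and 7 constitutive beta genes of the 20S core, the testis alpha gene Psma8, 3 immunosubunits, the thymus beta gene Psmb11, 6 ATPases and 11 other subunits of the 19S cap, 5 activator genes, 1 inhibitor and 7 assembly chaperones. Psmc3ip, which encodes the meiotic recombination protein HOP2, shares the stem of the symbol but is not a proteasome gene.

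The proteasome is the barrel-shaped protease that degrades proteins tagged with ubiquitin. Its 20S core is built of alpha and beta rings, and the cap that opens it is the 19S particle, whose ATPase ring unfolds the substrate, or an activator of the Psme family. Male germ cells carry a testis version in which Psma8 takes the place of Psma7 in the alpha ring, and they use the activator PA200, encoded by Psme4, while immune cells and cells exposed to interferon exchange the 3 catalytic beta subunits for the immunosubunits Psmb8, Psmb9 and Psmb10.

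RNA was sequenced from GFP-positive testis cells sorted at postnatal day 18, with GFP driven by the locus of the meiotic cohesin gene Rec8. The labels give the mice a mixed C57BL/6 and CBA background. The paper's methods instead describe the knockout as C57BL/6 and the Rec8 knock-in as congenic with it. All 4 libraries carried that knock-in, named Rec8-3xFLAG-HA-p2A-GFP. The 2 controls were Zfp541+/-, so they too carried one deleted copy of Zfp541, and the other 2 libraries were labelled Zfp541 KO and came from individual testes. One control testis was heterozygous and one homozygous for the knock-in, both testes labelled KO were homozygous, and which control was which was not given, so the dose of the knock-in and the genotype cannot be told apart. Nothing in the sources says whether the animals were littermates, so the p-values measure the spread between these testes only.

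The targeted gene did not go with the labels: Zfp541 had levels of 112 and 72.2 TPM in controls 1 and 2, against 136 and 151 TPM in the KO-labelled libraries 1 and 2. The paper describes the allele as a deletion of many exons, from the first onwards, and found no ZFP541 protein in knockout testes. A single value per gene cannot tell deleted exons from the rest of the gene, so every direction below rests on the labels alone. The controls lay farther apart from each other on the log2(TPM + 1) scale (Euclidean distance over all genes tested, 153) than either lay from a KO-labelled library (111 to 133), and the latter 2 lay closest together (49.2). Macrophage and Leydig cell markers were far lower in control 2 than in the other 3 libraries. The sum of 11 macrophage markers was 3221 and 36.8 TPM in controls 1 and 2, against 2744 and 2018 TPM in KO 1 and KO 2. The sum of 5 Leydig cell markers was 2873 and 18.0 TPM in the controls, against 324 and 491 TPM in the KO-labelled libraries. None of these markers was at 0 in any library. No spermatogonial, leptotene and zygotene or pachytene marker was at 0 in any library. Of 7 round spermatid markers, 1 and 4 were at 0 in controls 1 and 2, against 1 and 2 in KO 1 and KO 2. Sycp3, a component of the meiotic chromosome axis, was at 1108 and 1263 TPM in the controls, against 2093 and 2196 TPM in the KO-labelled libraries. Marker sums for meiotic stages lay apart between the groups, with 8 leptotene and zygotene markers summing to 1935 and 2418 TPM in the controls, against 3886 and 4034 TPM in the KO-labelled libraries, and 10 pachytene markers summing to 6029 and 2751 TPM in the controls, against 1749 and 2546 TPM in the KO-labelled libraries. The pachytene separation rested on Ldhc, at 3659 and 1819 TPM in the controls, against 768 and 1230 TPM in the KO-labelled libraries. Without Ldhc, the pachytene sums overlapped between the groups. Both KO-labelled libraries lay above both controls in 6 of the 8 and 1 of the 10 genes, against 38.6% of all genes tested. They lay below both in 0 of the 8 and 4 of the 10, against 12.1%. The sums of spermatogonial, round spermatid, Sertoli, peritubular and red blood cell markers overlapped between the groups. In bulk RNA, fewer cells of a type and less RNA per cell cannot be told apart.

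Proteasome RNA was abundant in every library. The 49 genes together made up 0.939% and 1.27% of all TPM in controls 1 and 2, against 1.03% in both KO 1 and KO 2. TPM is corrected for transcript length, so levels can be compared between genes. The median level of the 14 constitutive 20S core genes was 248 and 419 TPM in the controls, against 284 and 304 TPM in the KO-labelled libraries. Within one library these 14 genes spanned 2.64-fold to 3.30-fold from lowest to highest, and the 17 genes of the 19S cap spanned 4.04-fold to 5.50-fold. The core genes were thus within a narrow band. The immunosubunits, Psme2b, the inhibitor and several assembly chaperones lay well below it, and lowest was the thymus gene Psmb11, at 0.060 and 0.17 TPM in the controls, against 0.11 and 0.090 TPM in the KO-labelled libraries.

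**Figure D1:**
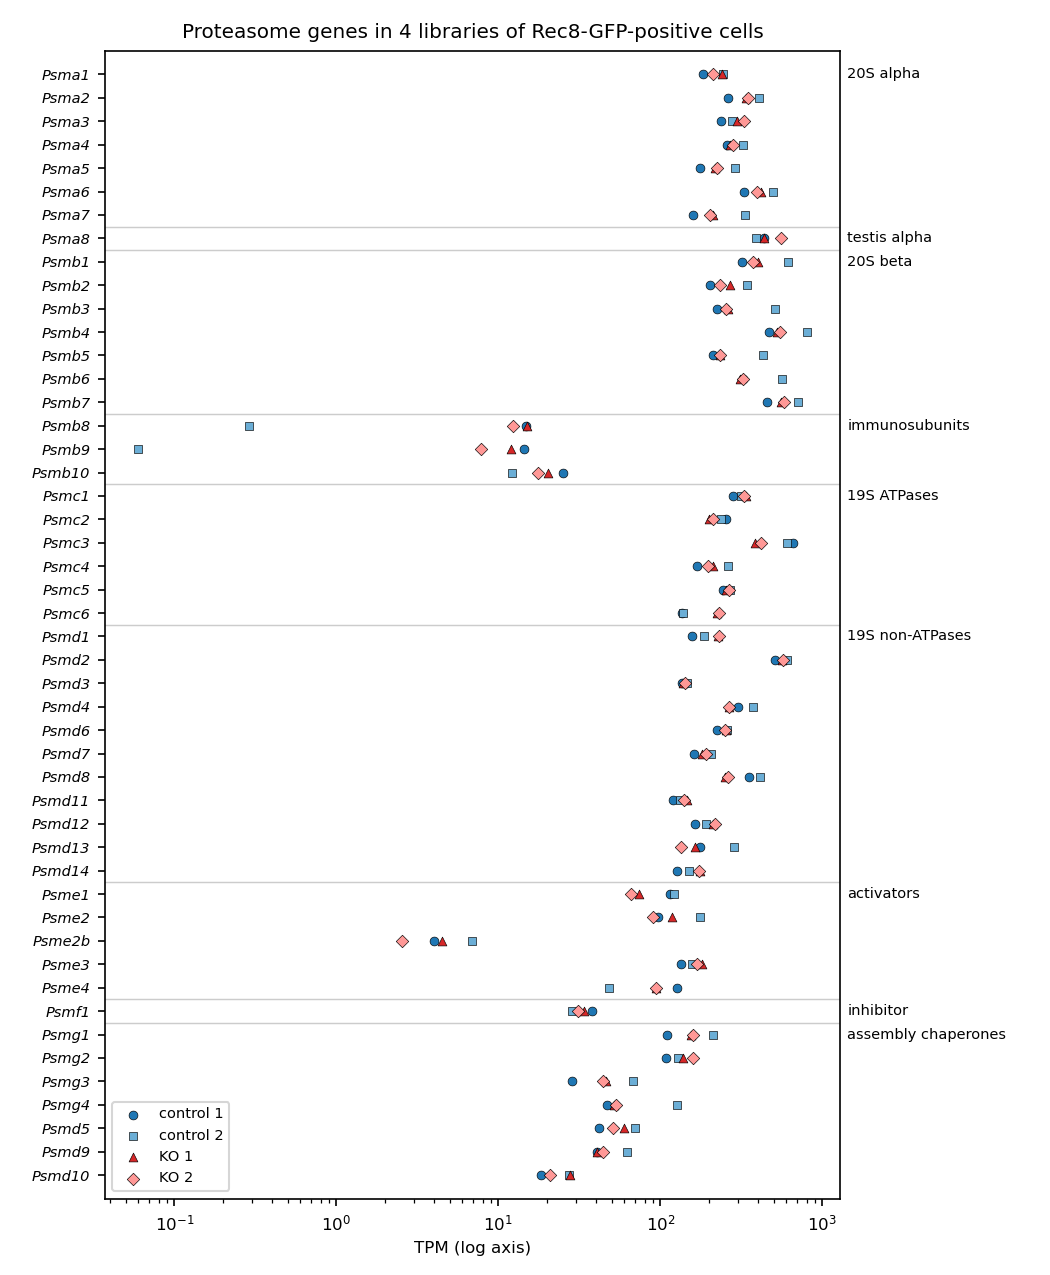
Level of each proteasome gene with a mean of at least 1 TPM, in TPM on a log axis, with 1 point per library (blue circle and square for controls 1 and 2, red triangle and diamond for the KO-labelled libraries 1 and 2) and genes grouped by role. The square of control 2 is the highest point for 6 of 7 constitutive alpha and 7 of 7 constitutive beta genes, and lies far to the left for Psmb8 (0.29 TPM) and Psmb9 (0.060 TPM).

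No proteasome gene passed the test between the groups. With limma on log2(TPM + 1) and Benjamini-Hochberg adjustment over all 14512 genes, 0 of 48 proteasome genes passed an FDR of 0.05, against 0.0% of all genes tested. The fit recovered only large changes in simulated data, where each gene had its spread in these samples, pooled over the groups. The lack of calls therefore does not show that the genes are unchanged. At an unadjusted p under 0.05, 1 proteasome gene was higher in the KO-labelled libraries (2.08%, against 10.7% of all genes) and 3 were lower (6.25%, against 3.73%). Which of these 2 counts was the larger depended on which control was left out. Both KO-labelled libraries lay above both controls in 9 proteasome genes (18.8%, against 38.6% of all genes) and below both in 6 (12.5%, against 12.1%). The share above was lower among proteasome genes than among all genes, and the share below was near that of all genes.

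The balance between higher and lower depended on scaling. The median log2 fold change (KO-labelled libraries over controls) was 0.018 over the 48 proteasome genes and 0.28 over all genes tested, with 26 proteasome genes above 0 and 22 below. Median-ratio scaling moved the medians to -0.31 and -0.0044, and it left 1 proteasome gene with both KO-labelled libraries above both controls and 14 below, against 23.1% and 22.3% of all genes. The median also rested on the controls, at -0.23 without control 1 and 0.20 without control 2, where all genes tested had medians of 0.44 and 0.15.

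**Figure D2:**
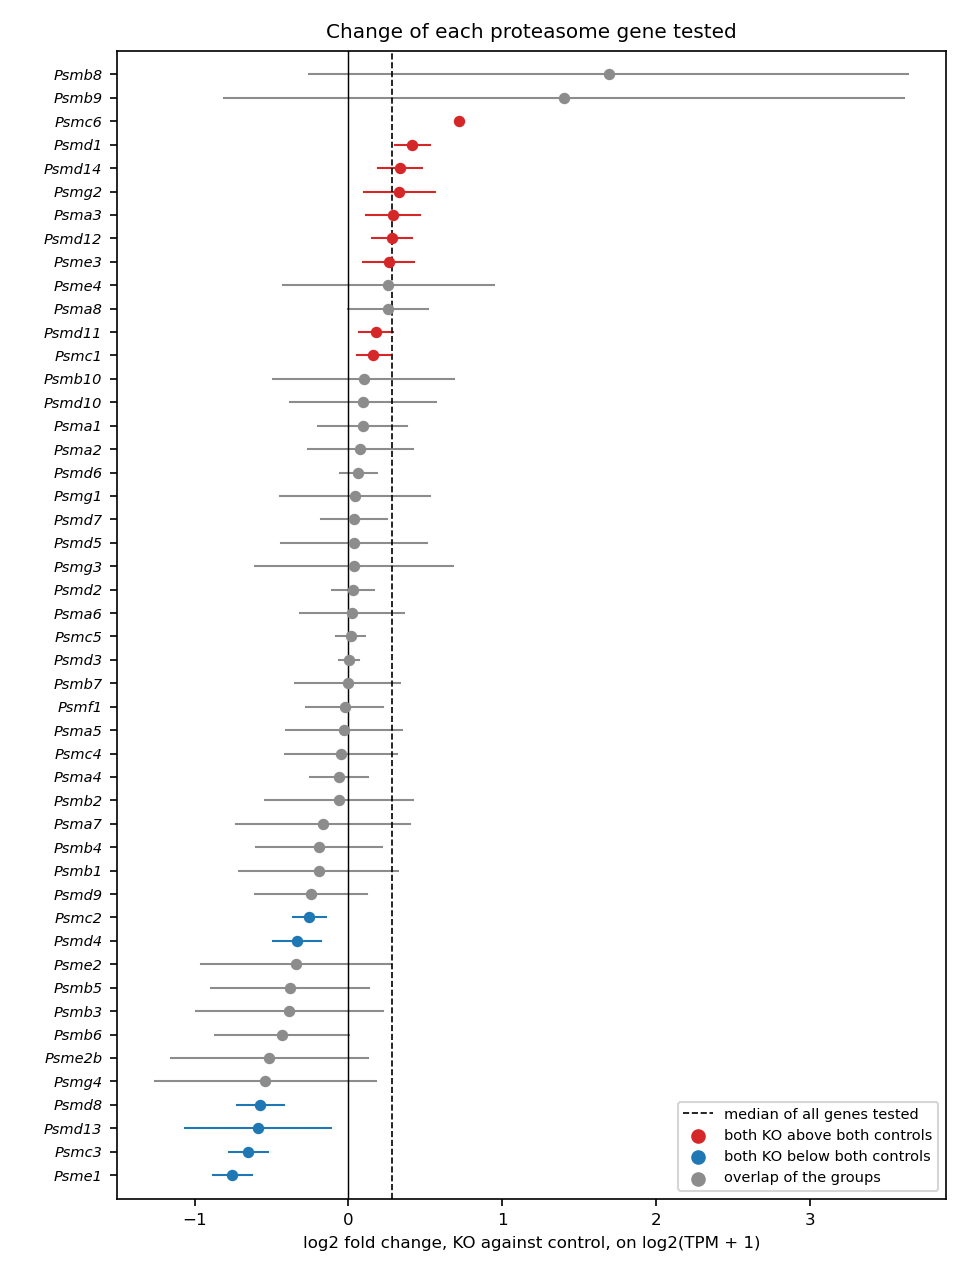
Log2 fold change of each of the 48 proteasome genes tested (dot, KO-labelled libraries over controls, on log2(TPM + 1)), with a line from the lowest to the highest of the 4 differences between a single KO-labelled library and a single control. Red marks the 9 genes with both KO-labelled libraries above both controls, blue the 6 with both below, and grey the rest, and the dashed line is the median of all genes tested, 0.28.

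The pattern carried by the most core genes was a difference between the controls. Control 2 was above control 1 in 40 of 48 proteasome genes (83.3%, against 33.6% of all genes), and both KO-labelled libraries fell between the controls in 26 of 48 (54.2%, against 30.9%). As an example, Psmb3, a beta subunit without catalytic activity, was at 225 and 509 TPM in the controls, against 263 and 256 TPM in the KO-labelled libraries. Psmb4, the beta gene with the highest mean, was at 468 and 800 TPM in the controls, against 527 and 545 TPM in the KO-labelled libraries. In both genes control 2 stood high and the other 3 libraries lay close together. The log2 fold change of Psmb3 was -0.97 without control 1 and 0.20 without control 2. The median log2 difference of control 2 over control 1 was 0.60 over the 7 constitutive alpha genes, 0.81 over the 7 constitutive beta genes and 0.72 over the 7 assembly chaperones, against -0.36 over all genes tested. The 6 ATPases did not share it to that degree, at a median of 0.072. These differences are between single libraries and have no replicate check.

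The alpha ring held the testis gene at the top. Psma8 was at 435 and 391 TPM in the controls, against 434 and 559 TPM in the KO-labelled libraries. Psma7, the ubiquitous gene whose place it takes, was at 160 and 336 TPM in the controls, against 211 and 202 TPM in the KO-labelled libraries. Psma8 was the first of the 8 alpha genes in 3 libraries and the third in control 2, and Psma7 was the last in the same 3 libraries and the fourth in control 2. Psma8 therefore made up 73.2% and 53.8% of the pair in controls 1 and 2, against 67.2% and 73.5% in KO 1 and KO 2. Control 2 was the library with the lowest share, and the value of KO 1 lay between those of the controls. No window of 75 nt, the read length, was shared between the transcripts of the 2 genes (0 of 2700 windows of Psma8), so reads that match exactly could not be split between them.

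The log2 ratio of Psma8 to Psma7 was 0.83 ± 0.86 (SD, n = 2) in the controls, against 1.25 ± 0.30 (SD, n = 2) in the KO-labelled libraries. The difference of 0.42 was smaller than the spread between controls (two-sided exact permutation test, p = 0.667; 1.00 after Benjamini-Hochberg adjustment over the 5 ratios tested). With 2 libraries a group this test cannot give a p below 0.333. Taken alone, Psma8 had a log2 fold change of 0.25 ± 0.24 (SE, adjusted p = 0.629 from limma) and Psma7 one of -0.16 ± 0.40 (SE, adjusted p = 0.866 from limma). Psma8 ranged from 0.073 to 0.44 when any 1 library was left out and turned to -0.070 with median-ratio scaling, and Psma7 was at -0.70 without control 1 and 0.37 without control 2. Psma8 lies on chromosome 18 at 14706151 to 14762301 (GENCODE, GRCm38), and Psma7 on chromosome 2 at 180036374 to 180042433.

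The other alpha genes lay mostly between the controls. Psma1, the lowest of them by its mean, was at 184 and 242 TPM in the controls, against 240 and 212 TPM in the KO-labelled libraries. Psma6, the highest, was at 327 and 495 TPM in the controls, against 420 and 397 TPM in the KO-labelled libraries. In both genes the groups overlapped. Psma3 was the 1 constitutive alpha gene of 7 in which they did not, at 237 and 275 TPM in the controls, against 298 and 327 TPM in the KO-labelled libraries, with a log2 fold change of 0.29 ± 0.20 (SE, adjusted p = 0.530 from limma). That difference was equal to the median of all genes to within 0.0069, and it was -0.034 with median-ratio scaling. The median over the 7 genes was 0.023, with 1 gene above and 0 below both controls, against 38.6% and 12.1% of all genes.

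The constitutive beta genes had overlapping groups in all 7 cases, where 38.6% of all genes lay above both controls and 12.1% below. Psmb2, the lowest by its mean, was at 202 and 341 TPM in the controls, against 270 and 234 TPM in the KO-labelled libraries. The catalytic genes Psmb5, Psmb6 and Psmb7 carry the chymotrypsin-like, caspase-like and trypsin-like activities. Psmb5 was at 212 and 432 TPM in the controls, against 233 TPM in both KO-labelled libraries. Psmb6 was at 324 and 567 TPM in the controls, against 311 and 325 TPM in the KO-labelled libraries. Psmb7 was at 457 and 710 TPM in the controls, against 558 and 577 TPM in the KO-labelled libraries. In each of the 3 genes control 2 was the highest library. The median log2 fold change of the 7 genes was -0.19, at -0.66 without control 1 and 0.20 without control 2.

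Of all proteasome genes, Psmb8 and Psmb9 differed most between the controls. Psmb8, which replaces Psmb5, was at 14.9 and 0.29 TPM in the controls, against 15.1 and 12.3 TPM in the KO-labelled libraries. Psmb9, which replaces Psmb6, was at 14.5 and 0.060 TPM in the controls, against 11.98 and 7.82 TPM in the KO-labelled libraries. Both genes were near 0 in control 2 alone. Psmb10, which replaces Psmb7, was at 25.2 and 12.1 TPM in the controls, against 20.2 and 17.6 TPM in the KO-labelled libraries, with control 2 again the lowest but well above 0.

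The fitted changes of these genes followed which control was used. Psmb8 had a log2 fold change of 1.69 ± 1.29 (SE, adjusted p = 0.564 from limma), which was 3.50 without control 1 and -0.12 without control 2. Psmb9 had one of 1.40 ± 1.38 (SE, adjusted p = 0.651 from limma), which was 3.34 without control 1 and -0.53 without control 2. Against their constitutive partners, the log2 ratios differed between the groups by 2.07 for Psmb8 over Psmb5, 1.83 for Psmb9 over Psmb6 and 0.10 for Psmb10 over Psmb7, each with p = 1.00 by the two-sided exact permutation test. Genes of class I antigen presentation stood low in control 2 as well. B2m, the light chain of the class I molecule, was at 481 and 44.6 TPM in the controls, against 442 and 337 TPM in the KO-labelled libraries, and Tap2, a peptide transporter subunit, was at 10.4 and 0.16 TPM in the controls, against 7.80 and 6.66 TPM in the KO-labelled libraries. The heavy chain gene H2-K1 did not share this, at 347 and 456 TPM in the controls, against 527 and 450 TPM in the KO-labelled libraries. The macrophage and Leydig marker sums given above were lowest in the same library, and their part in the levels of Psmb8 and Psmb9 was not tested.

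**Figure D3:**
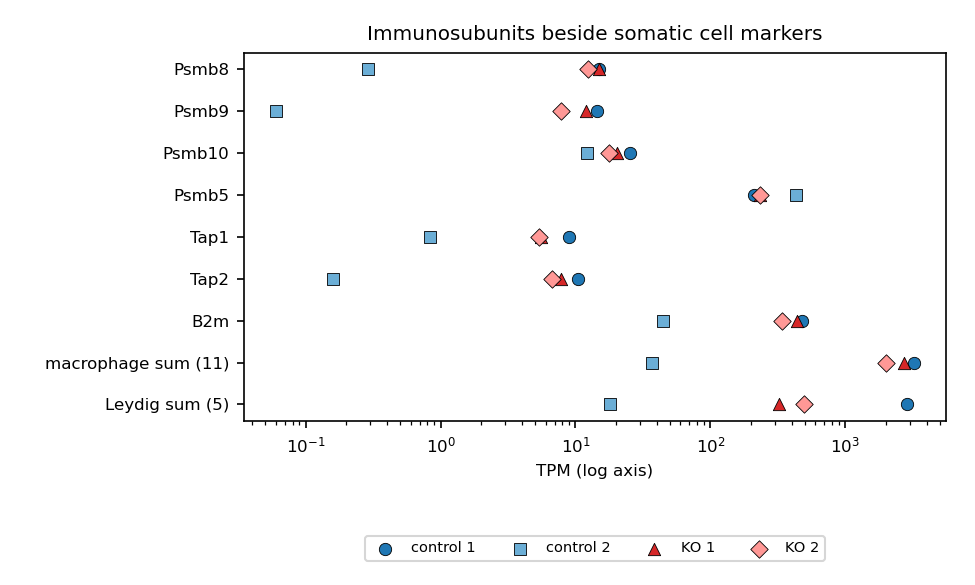
Levels in TPM on a log axis of the 3 immunosubunits, the constitutive gene Psmb5, 3 class I presentation genes, and the summed macrophage and Leydig markers, with 1 point per library. Control 2 (light blue square) is the lowest library in all of these but Psmb5, where it is the highest at 432 TPM.

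Psmb8 and Psmb9 lie close together on chromosome 17, Psmb8 at 34197721 to 34201454 on the plus strand and Psmb9 at 34181987 to 34187764 on the minus strand (GENCODE, GRCm38). Exons of Psmb9 overlap those of Tap1, the partner of Tap2, on the opposite strand, and Tap1 was at 8.99 and 0.84 TPM in the controls, against 5.56 and 5.35 TPM in the KO-labelled libraries. Whether the counting used strand was not stated, so reads from the overlap of Psmb9 and Tap1 may have been counted for either. The same limit holds for Psmb8 with Gm20496, Psmb7 with Nek6 and Psmd1 with Htr2b. Strand cannot separate Psmb5 from Mir686, whose exons overlap on the same strand. Mir686 was at 100 and 168 TPM in the controls, against 67.4 and 140 TPM in the KO-labelled libraries. Psmd1 with Gm21972 and Psmg3 with Gm26938 also overlap on the same strand. The share of such reads in the levels of Psmb5, Psmd1 and Psmg3 was not tested.

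Among the 19S ATPases, Psmc6 and Psmc3 lay on opposite sides of the controls. Psmc6 (RPT4) was at 137 TPM in both controls and at 224 and 229 TPM in the KO-labelled libraries. Psmc3 (RPT5) was at 659 and 604 TPM in the controls, against 384 and 419 TPM in the KO-labelled libraries. Both genes encode subunits of the same hexameric ring, and in neither did the groups overlap. Psmc6 had a log2 fold change of 0.72 ± 0.17 (SE, unadjusted p = 0.0114, adjusted p = 0.310 from limma), and Psmc3 one of -0.65 ± 0.21 (SE, unadjusted p = 0.0311, adjusted p = 0.320 from limma). Neither passed the FDR. Relative to the median of all genes, Psmc6 was 0.44 higher and Psmc3 lower, at -0.93. Both kept their direction under median-ratio scaling, at 0.40 and -0.98, and when any 1 library was left out, at 0.70 to 0.74 and -0.71 to -0.59.

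The ratio of Psmc3 to Psmc6 was 4.81 and 4.40 in the controls, against 1.72 and 1.83 in the KO-labelled libraries, and it carries no test because the pair was picked after its values were seen. Psmc3 was the first of the 6 ATPase genes in every library, whereas Psmc6 was the last in both controls and the fourth in both KO-labelled libraries. Psmc2 (RPT1) was at 256 and 236 TPM in the controls, against 199 and 213 TPM in the KO-labelled libraries, and Psmc1 (RPT2) was at 282 and 317 TPM and at 340 and 329 TPM. The log2 fold change of Psmc1 was 0.16, and -0.16 with median-ratio scaling. Among the 6 ATPases, 2 thus lay above and 2 below both controls, against 38.6% and 12.1% of all genes, with a median log2 fold change of -0.017. Psmc3 lies on chromosome 2 at 91054009 to 91066369 and Psmc6 on chromosome 14 at 45329788 to 45349705 (GENCODE, GRCm38). Exons of Psmc3 overlap those of Slc39a13 on the opposite strand, which was at 20.2 and 12.9 TPM in the controls, against 16.3 and 16.2 TPM in the KO-labelled libraries. The leptotene and zygotene marker sum also differed between the groups, as did the pachytene sum through Ldhc. The part of these marker differences in the levels of Psmc3 and Psmc6 was not tested.

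**Figure D4:**
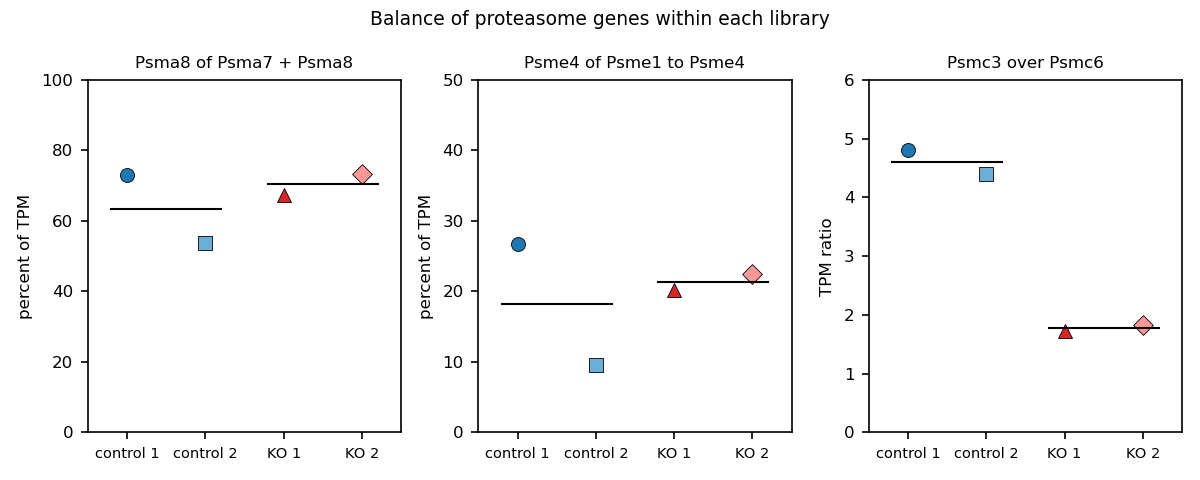
Share of Psma8 in the sum of Psma7 and Psma8, share of Psme4 in the sum of Psme1 to Psme4 (both in percent of TPM), and TPM ratio of Psmc3 to Psmc6, with 1 point per library and a bar at the mean of each group. The 2 shares overlap between the groups, with control 2 lowest at 53.8% and 9.62%, while the ratio is 4.81 and 4.40 in the controls, against 1.72 and 1.83 in the KO-labelled libraries.

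Of the 11 other 19S subunits, 4 lay above both controls and 3 below, against 38.6% and 12.1% of all genes, with a median log2 fold change of 0.037. Psmd1 (RPN2), a scaffold subunit, was at 158 and 185 TPM in the controls, against 228 and 229 TPM in the KO-labelled libraries, with a log2 fold change of 0.42 ± 0.19 (SE, adjusted p = 0.390 from limma). Psmd14 (RPN11), which removes ubiquitin chains from the substrate, was at 126 and 151 TPM in the controls, against 177 and 172 TPM in the KO-labelled libraries, with a log2 fold change of 0.34 ± 0.19 (SE, adjusted p = 0.465 from limma). Both were higher in each KO-labelled library than in each control, and with median-ratio scaling their log2 fold changes were 0.092 and 0.011.

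Psmd8 (RPN12) was at 353 and 412 TPM in the controls, against 249 and 263 TPM in the KO-labelled libraries, with a log2 fold change of -0.57 ± 0.20 (SE, unadjusted p = 0.0403, adjusted p = 0.331 from limma). Psmd13 (RPN9) was at 176 and 283 TPM in the controls, against 163 and 135 TPM in the KO-labelled libraries, with a log2 fold change of -0.59 ± 0.30 (SE, adjusted p = 0.427 from limma). Psmd4 (RPN10), a ubiquitin receptor, was at 302 and 373 TPM in the controls, against 267 and 265 TPM in the KO-labelled libraries, with a log2 fold change of -0.33 ± 0.21 (SE, adjusted p = 0.496 from limma). All 3 were lower in both KO-labelled libraries. Psmd4 was at -0.49 without control 1 and -0.18 without control 2. Psmd13 was at -0.93 without control 1 and -0.25 without control 2, and it shares exon sequence on opposite strands with Sirt3, which stood at 81.0 and 79.3 TPM in the controls, against 49.8 and 44.9 TPM in the KO-labelled libraries. The share of those reads in the Psmd13 value was not tested.

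The highest and the lowest of these 11 genes differed less. Psmd2 (RPN1), the other large scaffold, was at 508 and 604 TPM in the controls, against 561 and 570 TPM in the KO-labelled libraries, between the controls. Psmd11 (RPN6), the lowest by its mean, was at 120 and 133 TPM in the controls, against 146 and 140 TPM in the KO-labelled libraries. Its groups did not overlap, but its log2 fold change of 0.18 lay below the median of all genes.

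Among the activators, the groups overlapped for the germ cell gene Psme4 and did not for Psme1 and Psme3. Psme4 (PA200), known for its role with acetylated histones in spermatogenesis, was at 126 and 48.4 TPM in the controls, against 94.2 and 93.6 TPM in the KO-labelled libraries. Both of the latter lay between the controls. Its log2 fold change was 0.26 ± 0.50 (SE, adjusted p = 0.826 from limma), at 0.94 without control 1, -0.42 without control 2 and -0.062 with median-ratio scaling. Its share of the summed level of Psme1 to Psme4 was 26.7% and 9.62% in the controls, against 20.2% and 22.4% in the KO-labelled libraries. Psme3 (PA28 gamma), a nuclear activator, was at 134 and 157 TPM in the controls, against 181 and 169 TPM in the KO-labelled libraries, with a log2 fold change of 0.26 ± 0.19 (SE, adjusted p = 0.548 from limma) that was -0.063 with median-ratio scaling. The log2 ratio of Psme4 to Psme3 differed between the groups by -0.0023 (two-sided exact permutation test, p = 1.00).

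Psme1 (PA28 alpha), a subunit of the interferon-inducible activator, was at 115 and 122 TPM in the controls, against 74.1 and 65.8 TPM in the KO-labelled libraries. Its log2 fold change of -0.75 ± 0.18 (SE, unadjusted p = 0.0127, adjusted p = 0.310 from limma) was the lowest of all proteasome genes, and it ranged from -0.84 to -0.67 when any 1 library was left out. Unlike the immunosubunits, Psme1 was not low in control 2. Psme2 (PA28 beta), its partner in the same ring, was at 97.1 and 175 TPM in the controls, against 118 and 89.8 TPM in the KO-labelled libraries, where the groups overlapped. The level of Psme2 is uncertain, as is that of Psme2b (4.0 and 6.86 TPM in the controls, 4.46 and 2.53 TPM in the KO-labelled libraries), because 60.2% of the 75-nt windows of Psme2b (459 of 763) also occur in Psme2. Exons of Psme1 overlap those of Emc9 on the opposite strand, at 15.5 and 15.0 TPM in the controls, against 14.7 and 9.54 TPM in the KO-labelled libraries. The inhibitor Psmf1 (PI31) was at 37.8 and 28.6 TPM in the controls, against 33.7 and 31.1 TPM in the KO-labelled libraries, both between the controls.

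Among the 7 assembly chaperones, 1 lay above both controls and 0 below, against 38.6% and 12.1% of all genes. That gene was Psmg2 (PAC2), which helps to form the alpha ring, at 108 and 128 TPM in the controls, against 137 and 160 TPM in the KO-labelled libraries (log2 fold change 0.33 ± 0.20, SE, adjusted p = 0.491 from limma, and 0.0071 with median-ratio scaling). Its partner Psmg1 (PAC1), the highest of the chaperones, was at 109 and 210 TPM in the controls, against 154 and 159 TPM in the KO-labelled libraries. The 2 KO-labelled libraries lay between the controls for Psmg1 but not for Psmg2. Psmd10 (gankyrin), the lowest, was at 18.2 and 27.3 TPM in the controls, against 27.6 and 20.7 TPM in the KO-labelled libraries, and its groups overlapped.

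Genes that work with the proteasome but fall outside the symbol rule were read from 4 lists, and 0 genes of any list passed the FDR in limma. Of 14 genes for proteasome-associated proteins, 7 lay above both controls and 0 below, with a median log2 fold change of 0.29, which is near the median of all genes. Over all genes tested, 38.6% lay above and 12.1% below, and the counts of each list are to be read against these shares. The largest in that list was AI314180 (Ecpas), a proteasome adaptor, at 79.5 and 54.7 TPM in the controls, against 138 and 141 TPM in the KO-labelled libraries (log2 fold change 1.07, adjusted p = 0.310 from limma). Of 7 genes for assembly and regulation, 3 lay above and 0 below, with a median of 0.36. The highest fold change there was 0.82 for Nfe2l2, the oxidative stress factor NRF2, and the lowest 0.051 for Fbxo7. Of 6 genes for ubiquitin and its activation, 1 lay above and 2 below, with a median of -0.29. Uba6, an alternative E1 enzyme, was at 36.4 and 34.2 TPM in the controls, against 86.1 and 75.0 TPM in the KO-labelled libraries (log2 fold change 1.17, adjusted p = 0.310 from limma), and the polyubiquitin gene Ubb had the lowest fold change, -0.56. Of 9 class I and interferon genes tested, 0 lay above and 0 below, with a median of 0.39 between B2m at 1.38 and Tapbp at -0.13.

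Stretches near the RefSeq starts of 4 genes are shown. Psmc6 was the 1 proteasome gene higher at an unadjusted p under 0.05, and Psmd8 and Psme1 were 2 of the 3 that were lower. Psme4 encodes the germ cell activator. No RefSeq window was available for Psma8 or for Psmc3, the other lower gene. The 4 genes were picked, and the motifs chosen, after these values were seen. The sequences are from RefSeq (GRCm38.p6), taken from the 250 bases before each gene's start and shortened to the longest run outside annotated exons, and are written 5′ to 3′ on the strand of the gene, with capitals for a match to any of the 10 motifs given after them. They lie at chr14:45329574-45329787 (plus strand) for Psmc6, chr7:29180702-29180923 (minus strand) for Psmd8, chr14:55578249-55578359 (plus strand) for Psme1 and chr11:30771525-30771725 (plus strand) for Psme4. The Psme1 stretch lies before the RefSeq start but inside the gene as GENCODE draws it, from 55578123 to 55581529 on chromosome 14.
Psmc6: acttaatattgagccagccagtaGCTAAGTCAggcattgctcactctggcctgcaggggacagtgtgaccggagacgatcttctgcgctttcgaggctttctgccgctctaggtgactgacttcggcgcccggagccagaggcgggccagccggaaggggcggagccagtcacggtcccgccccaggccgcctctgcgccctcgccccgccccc
Psmd8: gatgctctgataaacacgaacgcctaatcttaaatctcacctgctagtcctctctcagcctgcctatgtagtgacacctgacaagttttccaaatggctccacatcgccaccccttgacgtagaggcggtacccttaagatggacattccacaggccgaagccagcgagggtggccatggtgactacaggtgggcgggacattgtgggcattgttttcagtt
Psme1: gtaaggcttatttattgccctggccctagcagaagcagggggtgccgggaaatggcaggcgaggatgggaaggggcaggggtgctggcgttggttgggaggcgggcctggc
Psme4: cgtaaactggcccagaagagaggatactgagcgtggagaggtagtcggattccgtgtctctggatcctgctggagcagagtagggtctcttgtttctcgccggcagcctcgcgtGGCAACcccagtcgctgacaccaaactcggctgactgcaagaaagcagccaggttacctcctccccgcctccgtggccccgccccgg

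The capitals in Psmc6 match TGACNNNGC on the other strand, 227 to 219 bases before the start, and those in Psme4 match GTTGCC on the other strand, 136 to 131 bases before it. Over the full 250 bases, GGGANNNNCC also matched on the other strand in Psmc6 and Psme4, and neither Psmd8 nor Psme1 held any of the 10 motifs. RefSeq windows were matched for 41 of the 49 genes and were searched on both strands. The antioxidant response core TGACNNNGC was in 5 of these 41 (12.2%, against 10.1% of all 27025 windows), the interferon-stimulated core GAAANNGAAA in 3 (7.32%, against 3.04%), and the gamma-activated core TTCNNNGAA in 2, Psmb8 and Psmg1 (4.88%, against 7.18%). The NF-kappaB core GGGANNNNCC was in 9 (22.0%, against 17.3%), CCAAT in 14 (34.1%, against 34.5%) and the E-box CACGTG in 4 (9.76%, against 6.05%). The MYB core AACTGCC was in 3 (7.32%, against 3.32%), the RFX core GTTGCC in 6 (14.6%, against 10.5%), the CRE TGACGTCA in 0 (0%, against 1.62%) and TATAAA in 4 (9.76%, against 13.0%). Matches are letters in a window and describe no binding. The Psmb9 window, in which CCAAT and GTTGCC occurred, shares 225 of its bases with that of Tap1 on the opposite strand.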

How the data were processed

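RNA of sorted GFP-positive cells was sequenced as 75-nt single-end reads from 2 Zfp541+/- and 2 Zfp541 KO testes at postnatal day 18. The authors trimmed reads with Trim Galore 0.5.0 (cutadapt 1.16), aligned them to UCSC mm10 with STAR 2.6.0a, and deposited TPM per gene from RSEM 1.3.1. Since TPM does not hold the depth of a library, no counting interval is given and that part of the precision is unknown. The study names RSEM for its differential test, which was not repeated because the values are TPM. The paper reported both upregulated and downregulated genes between these groups, at a false discovery rate of 0.05 or less. The lack of calls given here therefore applies to the limma fit only. A date stands where a symbol should be for 27 genes, which were left unnamed.

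Genes averaging 1 TPM or more were fitted by group with limma 3.58.1 in R 4.3.3, with eBayes trended on the mean and Benjamini-Hochberg adjustment over all genes. The scale was log2(TPM + 1), on which changes of low genes come out too small. When tested on simulated data, the fit recovered large changes only. Each gene was simulated independently, with its pooled spread used for both groups. In the real data the controls lay farther apart than the KO-labelled libraries, so the simulation did not copy that feature. Ratios within a library were compared by a two-sided exact permutation test (scipy 1.17.1). Named genes were the lowest and highest of each group by mean, the testis, catalytic, immune and activator genes, the 5 largest changes in each direction among genes whose groups did not overlap, and the largest rise and fall of each related list. Psmb3, Psmc1, Psmc2, H2-K1, Tap2, neighbours with overlapping exons and the promoters were added after their values were seen. The members and lists were chosen with earlier results of these data known.

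Exons and transcripts came from GENCODE vM21 (GRCm38). Replicate numbers come from the labels. Across 14512 genes, deviations of same-numbered samples correlated at -0.16, so the numbers were not taken as pairs. The Paaf1 row was not used here. The gene with the lowest fold change in 1 related list is not reported here.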

Additional observations from a re-analysis of the deposited data

How the results depend on the processing

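No proteasome gene and none of the related genes passed an FDR of 0.05 with another pseudocount, filter, scaling or variance model, with a length correction, or without either KO-labelled library. Leaving out a control changed this, with a lone control assumed to vary like the other group: between 0 and 21 proteasome genes and between 0 and 20 related genes passed over the 4 fits that each left out 1 library. Without control 1, 21 proteasome genes passed, against 48.1% of all genes, and without control 2, 9 passed, against 28.4%. Psmc6 was higher and Psmc3, Psmd8 and Psme1 were lower in both of these fits, while Psme4, Psmg1 and Psmg3, among others, changed sign between them. Psmc6, Psmc3, Psmd8 and Psme1 were also the genes at an unadjusted p under 0.05 in limma with no library left out. Both fits used the same KO-labelled libraries, so the shared directions are no separate support. The number of proteasome genes with both KO-labelled libraries above both controls was 1 with median-ratio scaling, and the number below was 14. With 1 library left out, all kept KO-labelled libraries lay above all kept controls in 10 to 32 proteasome genes and below in 8 to 32. Fewer libraries make that condition looser, so these counts could only stay or rise, and so could the shares of all genes. Of all genes tested, 23.1% lay above with median-ratio scaling and 42.9% to 65.8% with 1 library left out. The shares below were 22.3% and 15.6% to 36.0%. The median of the proteasome genes was -0.31 with median-ratio scaling and -0.23 to 0.20 with 1 library left out. Apart from that looser condition, the cause of these shifts was not tested.

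With the replicate number as a block, 0 proteasome genes passed the FDR, and 0 were higher and 0 lower at an unadjusted p under 0.05. Without the mean-variance trend, 1 was higher and 1 lower at that p. With crossed numbers as a block, an alternative chosen after the data were seen, 87 of all genes and 0 proteasome genes passed.

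The difference in the log2 ratio of Psmb10 to Psmb7 turned to -0.34 with quantile normalization, and that of Psme4 to Psme3 to 0.00088 with a pseudocount of 0.1 and 0.00063 with median-ratio scaling. Over fits without 1 library the ratio differences ranged from -0.19 to 1.03 for Psma8, -0.25 to 4.39 for Psmb8, -0.51 to 4.17 for Psmb9, -0.71 to 0.92 for Psmb10 and -0.80 to 0.79 for Psme4. Of the 48 proteasome genes, 20 changed sign with median-ratio scaling, and 30 had opposite signs without control 1 and without control 2. The matching shares of all genes tested were not counted. Median-ratio scaling also moved the median of all genes, from 0.28 to -0.0044, so these counts cannot be read as particular to proteasome genes. Among the genes named by rule, those that changed sign with median-ratio scaling were Psma8 (-0.070), Psme4 (-0.062), Psme3 (-0.063), Psmb10 (-0.21), Psma3 (-0.034), Psma1 (-0.23), Psma6 (-0.30), Psmd11 (-0.14), Psmd2 (-0.30), Psmd10 (-0.22) and Psmg1 (-0.28). With the length correction they were Psme4 (-0.32), Psmb2 (0.10), Psmd11 (-0.060) and Psmd2 (-0.21), and with quantile normalization Psmb7 (0.13), Psmb10 (-0.21) and Psmd10 (-0.14). With 1 library left out, changes of sign among these named genes came with ranges of -0.70 to 0.37 for Psma7, -0.42 to 0.94 for Psme4, -0.76 to 0.084 for Psme2, -0.89 to 0.13 for Psmb5, -0.32 to 0.31 for Psmb7, -0.12 to 3.50 for Psmb8, -0.53 to 3.34 for Psmb9, -0.40 to 0.60 for Psmb10, -0.10 to 0.29 for Psma1, -0.28 to 0.32 for Psma6, -0.44 to 0.32 for Psmb2, -0.58 to 0.19 for Psmb4, -0.10 to 0.15 for Psmd2, -0.22 to 0.17 for Psmf1, -0.18 to 0.37 for Psmd10 and -0.42 to 0.51 for Psmg1.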

Other observations

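Psmc3ip, which the symbol rule leaves out, was at 322 and 293 TPM in controls 1 and 2, against 266 and 302 TPM in the KO-labelled libraries 1 and 2, so its groups overlapped. Rec8, whose locus drives the GFP used for the sort, was at 7.05 and 27.9 TPM in the controls, against 27.7 and 19.4 TPM in the KO-labelled libraries, with control 1 the lowest of the 4. Among all 24411 rows, Psma8 ranked 352 and 414 by TPM in the controls, against 323 and 233 in the KO-labelled libraries, while Psma7 ranked 1321 and 508 in the controls, against 916 and 1001 in the KO-labelled libraries.

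Psme3 and Psme1 encode activators that bind the same core. The ratio of Psme3 to Psme1 was 1.17 and 1.29 in the controls, against 2.44 and 2.56 in the KO-labelled libraries, a pair chosen after its values were seen and so not tested.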
